A study of Sus scrofa with 36 samples.

Results

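The comparison of beating cardiomyocytes with neural progenitors covered 6 of the 36 bulk RNA-seq libraries of a pig induced pluripotent stem cell (iPSC) study, 3 that carry the label cardiomyocyte day 9 and 3 that carry the label neural progenitor day 24. Each library was assigned to a lineage by its own RNA: a library was cardiac where TNNT2, which encodes cardiac troponin T, stood above PAX6 in TPM (transcripts scaled by length and library total), and neural where PAX6, a transcription factor of the neural tube and eye, stood above TNNT2. This rule gave 3 cardiac and 3 neural libraries, and 4 libraries matched their label. The library labelled neural progenitor day 24 replicate 1 fell on the cardiac side, and the library labelled cardiomyocyte day 9 replicate 2 fell on the neural side.

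All 6 libraries came from PiPSC clone 8, which is a single clonal pig iPSC line, and no genotype change or drug other than the differentiation media was given in the labels used here. The series also holds clone 8 cells at day 0, as mesendoderm at day 1, presomitic mesoderm at day 2, somite at day 3 and endothelial progenitors at day 6, with 3 libraries each, as well as other iPSC clones and fibroblasts. The lineage, the day (9 against 24) and the medium changed together in this design, so their parts cannot be told apart. No label says that the replicates were separate cultures, so a p-value here reflects only how libraries vary, in part perhaps for technical reasons. In the main fits that spread was estimated over all labelled clone 8 groups together, day 0 to day 6 included, not from the compared libraries alone.

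Cardiomyocytes contract by sliding thick filaments of myosin along thin filaments of actin, troponin and tropomyosin, which are anchored at the Z-disc and switched on by calcium released from the sarcoplasmic reticulum. Their precursors form in the mesoderm under transcription factors of the NKX2, GATA, TBX, HAND and MEF2 families. Neural progenitors carry SOX1, SOX2 and PAX6, keep dividing under Notch signalling, and give rise to neurons through a burst of proneural bHLH factors.

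The values of each gene below are TPM, a level per transcript length, and follow one order. The cardiac libraries are the libraries labelled cardiomyocyte day 9 replicates 1 and 3 and, last, the one labelled neural progenitor day 24 replicate 1. The neural libraries are the libraries labelled neural progenitor day 24 replicates 2 and 3 and, last, the one labelled cardiomyocyte day 9 replicate 2. The values that chose the libraries were far apart. TNNT2 (chromosome 10, 23749528 to 23759696, Sscrofa11.1) stood at 4380.2, 4409 and 5155 TPM in the cardiac and at 3.38, 2.48 and 4.28 TPM in the neural libraries. PAX6 (chromosome 2, 28971565 to 29001149) stood at 0.27, 0.08 and 0.19 TPM in the cardiac and at 359.6, 339 and 254 TPM in the neural libraries. No library lay near the line of equal TPM, and because these 2 genes made the groups they were not tested.

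**Figure D1:**
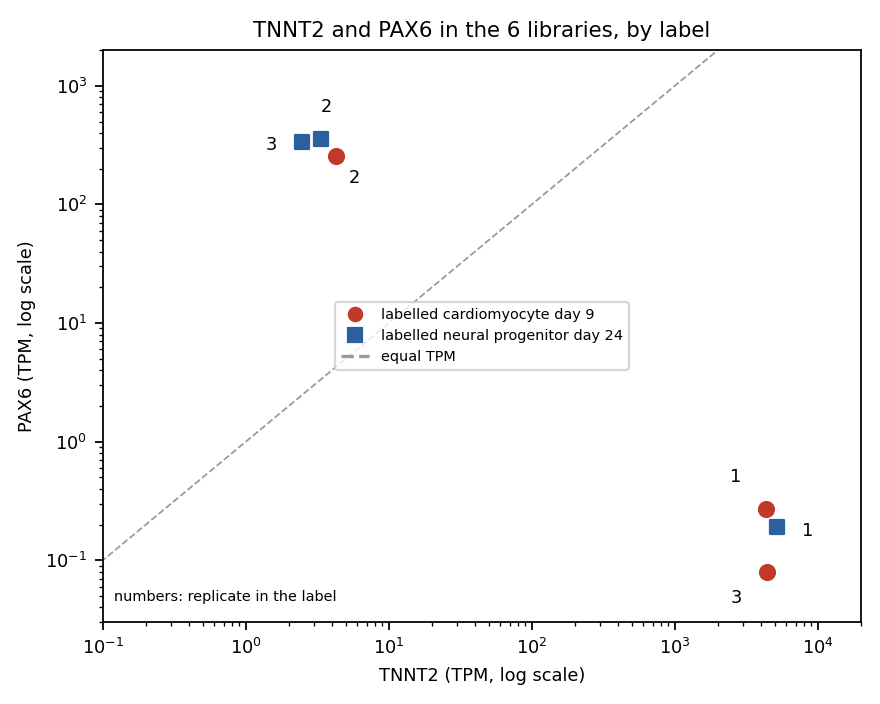
TNNT2 (horizontal) and PAX6 (vertical) in TPM on log axes for the 6 libraries; circles carry the cardiomyocyte day 9 label, squares the neural progenitor day 24 label, numbers give the replicate, and the dashed line marks equal TPM. One library of each label lies among the libraries of the other label.

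The other markers of both lineages, without TNNT2 and PAX6, also kept the 6 libraries apart. The 5 other cardiomyocyte markers (MYH7, ACTN2, NKX2-5, MYL7, TTN) summed to 5666 to 6535 TPM in the cardiac libraries and to 36.14 to 125.2 TPM in the neural libraries. The 5 other neural progenitor markers (SOX1, SOX2, NES, HES5, LHX2) summed to 57.73 to 85.38 TPM against 939.4 to 1202 TPM, and the Notch effector HES5 was at 0 in all 3 cardiac libraries. Neuron markers (DCX, STMN2, ELAVL3, SNAP25) summed to 8.7 to 11.2 TPM against 2227 to 2559 TPM. So the libraries named neural here held both progenitor and neuron transcripts. In bulk RNA, fewer cells of a type and less RNA per cell cannot be told apart.

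The total expected counts, which are RSEM's estimated reads per gene, ran from 1845333 in the library labelled neural progenitor day 24 replicate 3 to 7642081 in the library labelled neural progenitor day 24 replicate 1, with the other 4 libraries between 4914398 and 7120672. Between 13713 and 15130 genes had a count. Across 14248 genes, Spearman correlations of pairs within a lineage were 0.9731 to 0.9871 (6 pairs), and those of pairs between lineages were 0.6723 to 0.7172 (9 pairs). These are across genes, which are not independent replicates. The closest pair, the libraries labelled cardiomyocyte day 9 replicate 1 and neural progenitor day 24 replicate 1, had a chi-square of 4.638 per degree of freedom, so no library was a copy of another within sampling noise.

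Within a lineage few genes stood apart. Among 6826 genes of at least 10 TPM in the cardiac libraries, the library labelled neural progenitor day 24 replicate 1 had 2 genes at least 2-fold above both others and 4 at least 2-fold below both. Among 8887 such genes in the neural libraries, the library labelled cardiomyocyte day 9 replicate 2 had 14 above and 52 below. The library labelled neural progenitor day 24 replicate 3, which is the shallowest, had 48 above and 56 below, and TNNI2, MYLPF, MYH2, KLHL41, CKM, ACTA1 and MYH1, all genes of mature skeletal muscle, were among the highest of the 48.

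As labelled, 3 libraries against 3, the comparison called no gene. Of 14246 genes tested with edgeR's quasi-likelihood test, 0% had an adjusted p under 0.05 (called), DESeq2 and limma also called 0, and 753 had an unadjusted p under 0.05. With the 2 libraries that go against their label left out, 2 libraries against 2, 9224 of 14483 genes were called, which is 63.7%. All log2 differences given below are cardiomyocyte day 9 minus neural progenitor day 24 in this fit. The value after ± is an approximate standard error. It was worked back from the difference and its quasi-likelihood F value, and edgeR did not estimate it directly. As a background for the gene lists, several had a share called near that of all genes: 50% to 75% for the lists of immediate early and stress, let-7 axis, hindbrain and cord, glycolysis, muscle energy, Notch, cell cycle, Wnt and glial genes, whose total counts are not a result about them. Of the genes tested, 4622 (31.9%) were called higher in cardiomyocyte day 9 and 4602 (31.8%) were called higher in neural progenitor day 24. Of the called genes, 7221 were at least 2-fold apart. These calls describe the libraries that remained after 2 had been left out for their TNNT2 and PAX6 levels. Leaving out only the library labelled cardiomyocyte day 9 replicate 2 gave 2840 calls, and leaving out only the library labelled neural progenitor day 24 replicate 1 gave 3882.

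The 3 cardiac and 3 neural libraries grouped by TNNT2 and PAX6 were described without a test. Of 14246 genes, 6700 (47%) were at least 2-fold apart in TPM with no overlap of the 6 libraries, 1598 (11.2%) higher in the cardiac and 5102 (35.8%) higher in the neural libraries. This split moved with the scale: after TPM was divided by relative log expression (RLE) factors, 3001 were higher in the cardiac and 3269 higher in the neural libraries. On TPM the median gene lay 0.53 lower in the cardiac libraries on the log2 scale, while the scaling used in the test (TMM) put that median at 0. The 50 most abundant genes took 24.62% to 25.72% of the summed TPM in the cardiac and 18.21% to 23.02% in the neural libraries, and their part in this shift was not tested. Without the 2-fold minimum, 9964 genes (69.9%) kept the 6 libraries apart, 2933 (20.6%) higher in the cardiac and 7031 (49.4%) higher in the neural libraries. In all, 7353 of the 9224 called genes also separated the 6 libraries, without overlap, in the same direction.

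**Figure D2:**
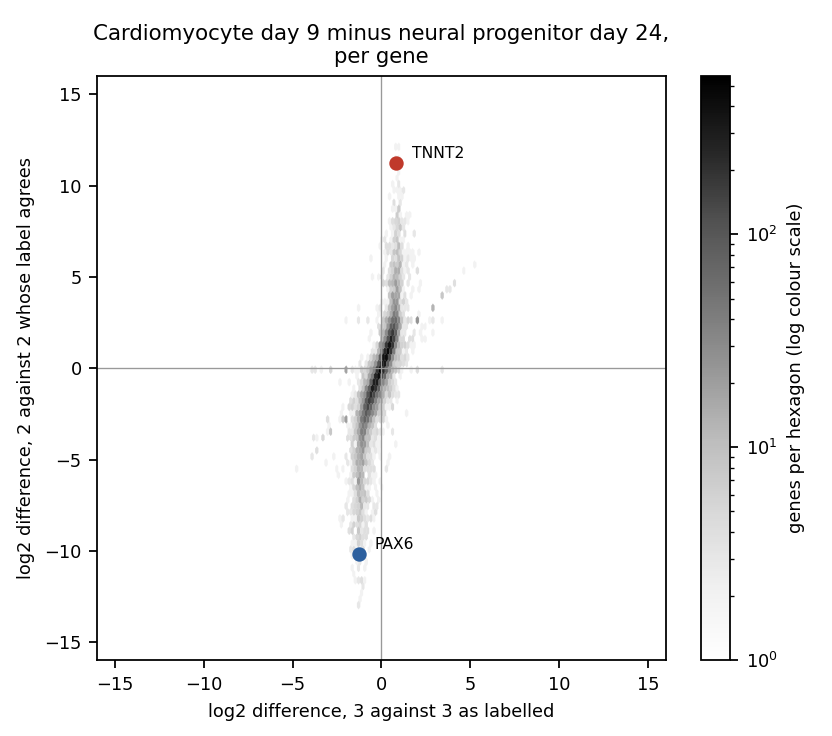
Log2 difference per gene, cardiomyocyte day 9 minus neural progenitor day 24, for 3 libraries against 3 as labelled (horizontal) and for the 2 against 2 whose label matches their TNNT2 and PAX6 (vertical); shading gives genes per hexagon. TNNT2 lies at 0.82 and 11.25 and PAX6 at -1.28 and -10.17, a gap that the choice of libraries fixes. Over the 14242 other genes in both fits the median absolute difference was 0.456 as labelled and 1.2 with matching labels.

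The 2 libraries that go against their label were close to the other lineage across all genes, not only in the marker genes. The library labelled cardiomyocyte day 9 replicate 2 had Spearman correlations of 0.9731 to 0.9798 with the neural libraries whose label matches and of 0.7051 to 0.7167 with the matching cardiac ones. For the library labelled neural progenitor day 24 replicate 1 they were 0.6906 to 0.7007 and 0.986 to 0.9871. For 7176 genes called and at least 2-fold apart in the 4 matching libraries, the first library lay on the cardiac side of the midpoint for 593 (8.26%) and the second for 6973 (97.2%). These 2 libraries took no part in the calls, but they entered a low-count filter that the 7176 genes also had to pass.

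Cardiac transcription factors separated the lineages in both directions. Of 17 tested members, 15 were called higher in cardiomyocyte day 9 and 2 higher in neural progenitor day 24, with a median log2 difference of 7.44 beside 0 for all genes tested, or 5.48 with genes at 0 on one side set to a floor of 3 counts over that side. TBX20, a T-box factor needed for the growth of the heart tube, stood at 248, 186 and 253 TPM in the cardiac and at 0.11, 0 and 0.28 TPM in the neural libraries. HAND2, a bHLH factor of the heart and limb, stood at 212, 193 and 206 TPM in the cardiac and at 0, 0.87 and 0.6 TPM in the neural libraries. GATA4, a zinc finger factor of the early heart field, stood at 55.6, 40.8 and 59.9 TPM in the cardiac and at 0.3, 0.3 and 0.1 TPM in the neural libraries, and NKX2-5, the homeobox factor that marks cardiac progenitors, at 39.5, 31.1 and 36.5 TPM in the cardiac and at 0.22, 0 and 0 TPM in the neural libraries. Every cardiac library lay above every neural library for these 4 genes. SMYD1, a methyltransferase and chaperone of heart and skeletal muscle, stood at 113, 114 and 142 TPM in the cardiac and at 0.06, 0.68 and 0.8 TPM in the neural libraries.

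Several of these factors were absent or near absent on the neural side. MYOCD, the coactivator myocardin, stood at 7.48, 7.86 and 11 TPM in the cardiac libraries. It was listed at 0 in all 3 neural libraries. TBX5, a factor of the left ventricle and atria, reached 12.5, 9.05 and 10.6 TPM in the cardiac libraries and 0, 0.4 and 0 TPM in the neural ones. MEF2C, shared by muscle and neurons, was higher in the cardiac libraries but present on both sides, at 117, 106 and 118 TPM in the cardiac and at 9.71, 17.6 and 10 TPM in the neural libraries. MEF2C differed by 3.91 ± 0.46 in log2 (edgeR adjusted p = 1.75e-07). The Notch target HEY2, a ventricular factor that also acts in the nervous system, differed less, at 111, 124 and 109.5 TPM in the cardiac and at 60.7, 60 and 51 TPM in the neural libraries. HEY2 differed by 1.72 ± 0.31 in log2 (edgeR adjusted p = 4.31e-05), a call lost with limma on log2(TPM + 0.1) (adjusted p = 0.053). The 2 members higher on the neural side were ISL1 and HOPX. ISL1, a factor of the second heart field and of motor and sensory neurons, stood at 0.86, 0.99 and 0.77 TPM in the cardiac and at 81, 88.3 and 58.3 TPM in the neural libraries. ISL1 differed by -5.67 ± 0.56 in log2 (edgeR adjusted p = 1.11e-08). HOPX stood at 3.91, 2.94 and 0.72 TPM in the cardiac and at 19.9, 14.4 and 32.9 TPM in the neural libraries, and its call was lost without the library labelled cardiomyocyte day 9 replicate 3 (edgeR adjusted p = 0.0937) or neural progenitor day 24 replicate 2 (edgeR adjusted p = 0.0935).

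Thin filament genes were among the most abundant transcripts of the cardiac libraries. Of 11 tested members, 9 were called higher in cardiomyocyte day 9, with a median of 6.01, and ACTA1 and TNNT1 did not pass; TNNT1 was called higher in neural progenitor day 24 by limma on log2(TPM + 1) (adjusted p = 0.00265). The list summed to 35000 to 36420 TPM in the cardiac libraries and to 467.2 to 1850 TPM in the neural ones. TNNC1, troponin C of heart and slow muscle, stood at 15259, 18365 and 16000.1 TPM in the cardiac and at 68.4, 275 and 60 TPM in the neural libraries. TNNC1 differed by 7.62 ± 0.47 in log2 (edgeR adjusted p = 4.45e-12). ACTC1, cardiac alpha-actin, stood at 3028, 2384 and 2740.1 TPM in the cardiac and at 10.4, 16.9 and 11.4 TPM in the neural libraries. ACTC1 differed by 8.55 ± 0.24 in log2 (edgeR adjusted p = 1.35e-17). TPM1, a tropomyosin of striated and smooth muscle, stood at 10660.3, 9799 and 10369 TPM in the cardiac and at 139, 341 and 103 TPM in the neural libraries.

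The troponin I pair showed the fetal and the adult cardiac form side by side. TNNI1, the slow skeletal form that the fetal heart uses, stood at 2365, 2075 and 2251 TPM in the cardiac and at 3.39, 18.2 and 3.38 TPM in the neural libraries, and TNNI3, the form of the adult heart, at 1596, 1677 and 1644 TPM in the cardiac and at 16.9, 3.97 and 36.7 TPM in the neural libraries. The ratio of TNNI1 to TNNI3 in TPM was 1.48, 1.24 and 1.37 in the cardiac libraries, so TNNI1 was the more abundant form in each. The actin pair was more one-sided, with ACTC1 at 22.1, 20.7 and 18 times the TPM of ACTA1, skeletal alpha-actin. ACTA1 itself stood at 137, 115 and 152 TPM in the cardiac and at 68.5, 347 and 66.6 TPM in the neural libraries, and the groups overlapped, with the library labelled neural progenitor day 24 replicate 3 above all others. The fitted difference of ACTA1 was 0.13 ± 0.95 in log2 (edgeR adjusted p = 0.925).

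Thick filament genes were higher in the cardiac libraries for 8 of 10 tested members, with a median of 6.49, and 1 member, MYOM2, was called in the other direction. MYL7, the atrial regulatory light chain that early cardiomyocytes also use, stood at 5301, 4882 and 4835 TPM in the cardiac and at 4.33, 5.91 and 2.04 TPM in the neural libraries. MYL7 differed by 10.85 ± 0.27 in log2 (edgeR adjusted p = 2.82e-18). MYL4, the atrial and embryonic essential light chain, stood at 4844, 4246 and 4397 TPM in the cardiac and at 2.47, 0 and 1.87 TPM in the neural libraries. MYL2, the ventricular regulatory light chain, stood at 1247, 1212 and 1204 TPM in the cardiac and at 23.4, 83.2 and 18.7 TPM in the neural libraries. MYL2 differed by 5.89 ± 0.88 in log2 (edgeR adjusted p = 4.8e-06). The atrial and embryonic forms were thus the more abundant in each cardiac library: MYL7 was at 4.25, 4.03 and 4.02 times the TPM of MYL2, and MYL4 at 1.89, 1.81 and 1.86 times that of MYL3, the ventricular essential light chain.

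MYH7, the slow cardiac myosin heavy chain, stood at 842, 496 and 743 TPM in the cardiac and at 41.8, 102 and 30.2 TPM in the neural libraries. MYH7 differed by 4.02 ± 0.69 in log2 (edgeR adjusted p = 2.68e-05). MYBPC3, cardiac myosin-binding protein C, stood at 323, 238 and 319 TPM in the cardiac and at 0.25, 0 and 0.11 TPM in the neural libraries and was near absent on the neural side. TTN, the giant spring protein titin, had a much lower level per length, at 5.41, 3.77 and 4.03 TPM in the cardiac and at 0.35, 1.25 and 0.35 TPM in the neural libraries. TTN differed by 3.45 ± 0.62 in log2 (edgeR adjusted p = 4.8e-05). MYOM2, an M-band protein of mature muscle, was at or under 0.78 TPM in all 6 libraries, and its call was lost with DESeq2 (adjusted p = 0.0733), without the library labelled cardiomyocyte day 9 replicate 3 (edgeR adjusted p = 0.274) and without the library labelled neural progenitor day 24 replicate 3 (edgeR adjusted p = 0.145).

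Z-disc and costamere genes included 13 called higher in cardiomyocyte day 9 of 16 tested, none in the other direction, and a median of 5.37. ANKRD1, a stress-responsive titin-binding repeat protein, stood at 1381, 1039 and 1162 TPM in the cardiac and at 4.81, 17.5 and 3.45 TPM in the neural libraries. ANKRD1 differed by 7.97 ± 0.55 in log2 (edgeR adjusted p = 2.85e-11). ACTN2, the actin crosslinker alpha-actinin 2, stood at 347, 254 and 357 TPM in the cardiac and at 4.06, 15.9 and 3.56 TPM in the neural libraries. ACTN2 differed by 5.94 ± 0.51 in log2 (edgeR adjusted p = 1.15e-09). MYOZ2, a calcineurin-binding Z-disc protein, stood at 30.1, 25.6 and 33.6 TPM in the cardiac libraries and was listed at 0 in the neural ones. DES, the muscle intermediate filament desmin, did not follow the other members, at 10.4, 19.9 and 18 TPM in the cardiac and at 22.9, 104 and 21.6 TPM in the neural libraries, with the highest value in the library labelled neural progenitor day 24 replicate 3. The fitted difference of DES was -1.02 ± 0.74 in log2 (edgeR adjusted p = 0.24), and it passed with only the compared libraries in the fit (edgeR adjusted p = 0.00914).

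Calcium handling genes were called higher in cardiomyocyte day 9 for 10 of 11 tested members, with a median of 4.16. CASQ2, the calcium-storing protein of the cardiac sarcoplasmic reticulum, stood at 403, 363 and 415 TPM in the cardiac and at 0.13, 0.97 and 0.17 TPM in the neural libraries. CASQ2 was near absent on the neural side. PLN, phospholamban, which restrains the calcium pump, stood at 174, 213 and 216 TPM in the cardiac and at 0, 0 and 1.94 TPM in the neural libraries. RYR2, the cardiac calcium release channel, stood at 16.2, 10.9 and 15.6 TPM in the cardiac and at 1.93, 1.85 and 1.57 TPM in the neural libraries, a difference of 3.61 ± 0.36 in log2 (edgeR adjusted p = 1.18e-08), and ATP2A2, the calcium pump itself, at 543, 431 and 493 TPM in the cardiac and at 129, 121 and 96.1 TPM in the neural libraries. ATP2A2 differed by 2.81 ± 0.16 in log2 (edgeR adjusted p = 1.61e-12). The pump was thus well expressed on both sides, while its regulator PLN was listed at 0 in 2 of the 3 neural libraries. SLN, sarcolipin, the atrial regulator of the pump, was listed at 0 in all 6. CAMK2D, a calcium-dependent kinase, was the 1 member called the other way, at 12.3, 9.66 and 18.4 TPM in the cardiac and at 41.5, 31.4 and 32.6 TPM in the neural libraries, a difference of -0.97 ± 0.26 in log2 (edgeR adjusted p = 0.0021), and its call was lost without the library labelled neural progenitor day 24 replicate 2 (edgeR adjusted p = 0.0703).

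Ion channels and connexins were mixed. Of 15 tested, 8 were called higher in cardiomyocyte day 9 and 4 higher in neural progenitor day 24, and limma on log2(TPM + 1) called 7 and 6. GJA1, the gap junction protein connexin 43, stood at 453, 355 and 379 TPM in the cardiac and at 15.4, 12.6 and 14.5 TPM in the neural libraries. GJA1 differed by 5.60 ± 0.22 in log2 (edgeR adjusted p = 2.84e-15). GJA5, connexin 40 of atria and conduction tissue, stood at 23.1, 15.1 and 11.2 TPM in the cardiac and at 2.15, 3.33 and 1.07 TPM in the neural libraries. GJA5 differed by 3.72 ± 0.33 in log2 (edgeR adjusted p = 2.27e-09). HCN4, the pacemaker channel, stood at 7.19, 5.76 and 9.33 TPM in the cardiac and at 9.69, 5.56 and 5.48 TPM in the neural libraries, with no call and overlapping groups. CACNA2D2, an auxiliary calcium channel subunit of brain, stood at 0.81, 0.69 and 0.96 TPM in the cardiac and at 23.2, 19.3 and 13.7 TPM in the neural libraries and was higher on the neural side. CACNA2D2 differed by -4.04 ± 0.47 in log2 (edgeR adjusted p = 1.43e-07).

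Secreted factors of the heart were called higher in cardiomyocyte day 9 for 7 of 8 tested members and lower for NRG1, the neuregulin that heart endothelium and neurons release. The median was 4.6, or 2.59 with genes at 0 on one side set to the floor. DESeq2 called 6 of the 8 higher in cardiomyocyte day 9, and limma on log2(TPM + 1) called 5, with a median of 1.4. BMP2, 1 of the 7, overlapped, at 2.03, 2.75 and 1.74 TPM in the cardiac and at 1.04, 4.55 and 3.26 TPM in the neural libraries. FGF10, another, was at or under 0.98 TPM in all 6 libraries. NPPA, the atrial natriuretic peptide, stood at 157, 75.3 and 118 TPM in the cardiac libraries and was listed at 0 in all 3 neural libraries. BMP5, a bone morphogenetic protein of the developing heart, stood at 250.5, 211 and 238 TPM in the cardiac and at 0.18, 1.98 and 0.91 TPM in the neural libraries. BMP5 differed by 9.34 ± 0.43 in log2 (edgeR adjusted p = 3.53e-14). NPPB, the brain natriuretic peptide, was lower than NPPA, at 5.67, 4.69 and 4.18 TPM in the cardiac libraries, and was listed at 0 in the neural ones. Its call was lost with DESeq2 (adjusted p = 0.473) and, among the libraries left out in turn, without the library labelled neural progenitor day 24 replicate 2 (edgeR adjusted p = 0.138).

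Muscle energy genes were called higher in cardiomyocyte day 9 for 9 of 15 tested members and in the other direction for 1, with a median of 1.86. MB, the oxygen-binding protein myoglobin, stood at 1288, 1606 and 1256 TPM in the cardiac and at 2, 14.5 and 0.84 TPM in the neural libraries. MB differed by 8.93 ± 0.57 in log2 (edgeR adjusted p = 7.26e-12). ENO3, muscle enolase, stood at 690.2, 722 and 639 TPM in the cardiac and at 15.5, 19.4 and 7.99 TPM in the neural libraries. ENO3 differed by 6.19 ± 0.28 in log2 (edgeR adjusted p = 2.21e-14). Of the creatine kinases in the list only CKB, the brain form, was called. It stood at 116, 102 and 105 TPM in the cardiac and at 970.2, 825 and 571 TPM in the neural libraries. CKB differed by -2.24 ± 0.17 in log2 (edgeR adjusted p = 2.14e-10). CKM, the muscle form, stood at 54.2, 50.8 and 60.6 TPM in the cardiac and at 27.2, 150.0 and 28 TPM in the neural libraries. CKM and CKMT2 had no call and overlapping groups. FABP3, the heart fatty acid binding protein, was abundant on both sides and higher in the cardiac libraries, at 794, 722 and 664 TPM in the cardiac and at 223, 186 and 252 TPM in the neural libraries. FABP3 differed by 2.66 ± 0.24 in log2 (edgeR adjusted p = 2.3e-09).

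**Figure D3:**
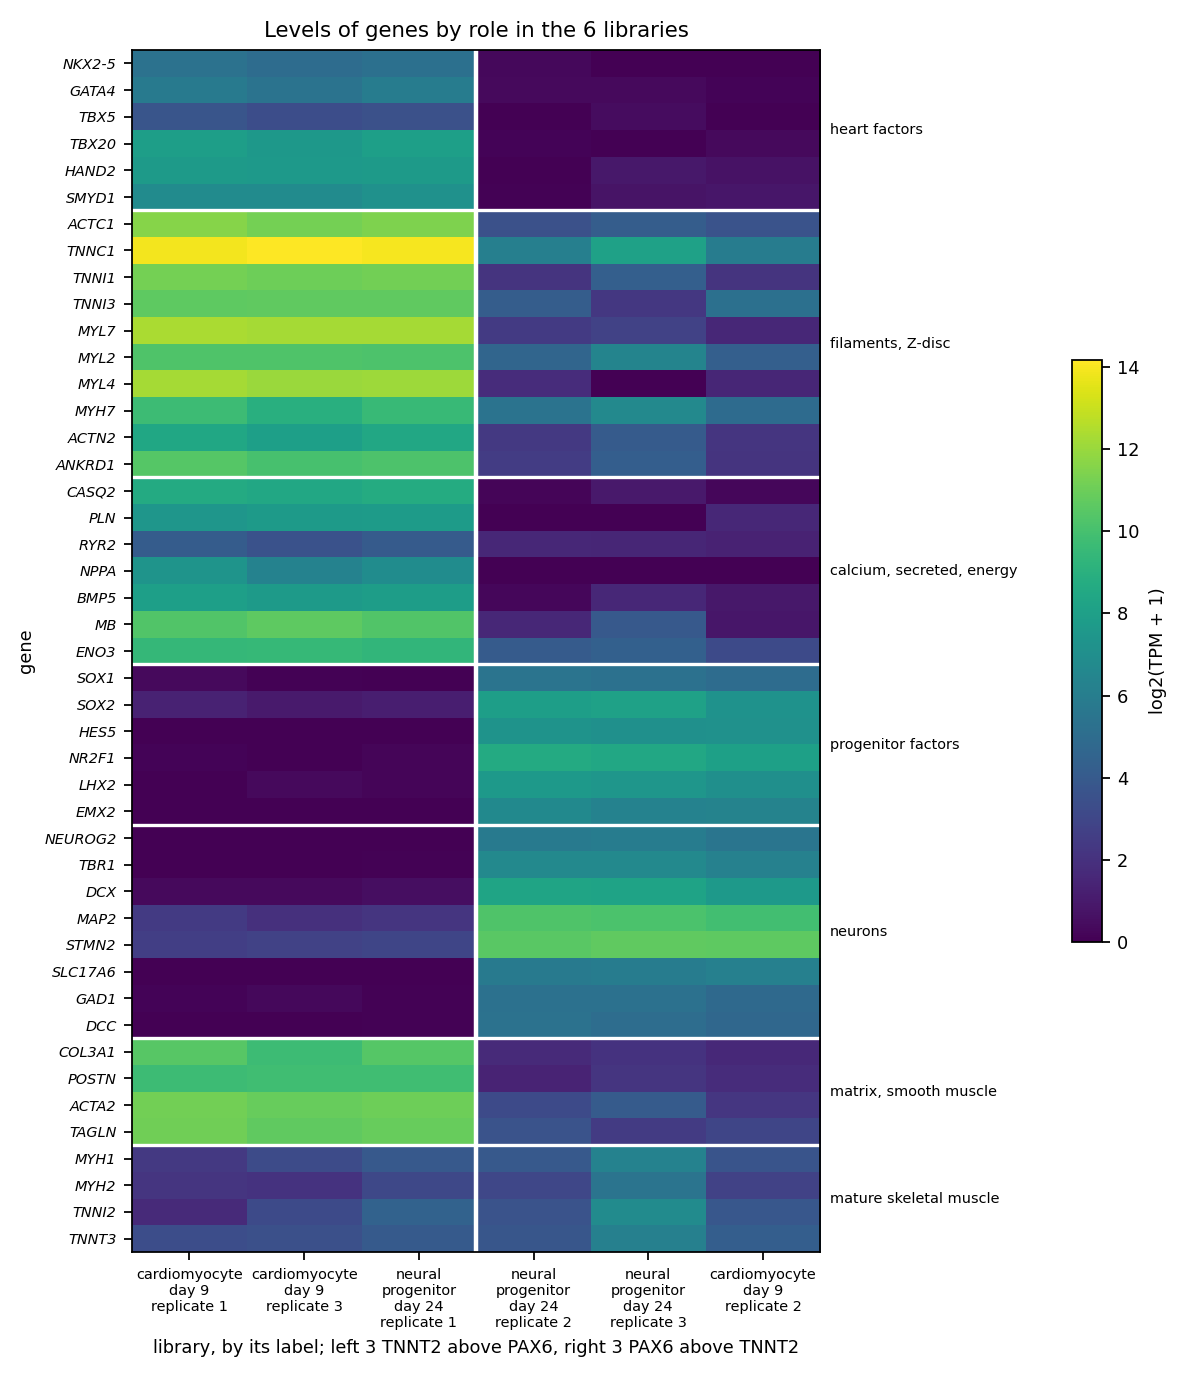
Levels of genes by role as log2(TPM + 1) (colour) in the 6 libraries, named by their labels; the left 3 columns have TNNT2 above PAX6 and the right 3 the reverse. The library labelled neural progenitor day 24 replicate 1 carries the heart and filament genes, the library labelled cardiomyocyte day 9 replicate 2 the neural genes, and the library labelled neural progenitor day 24 replicate 3 has the highest skeletal muscle genes, such as TNNI2 at 113 TPM.

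All 22 tested transcription factors of neural progenitors were called higher in neural progenitor day 24, with a median of -6.96, or -6.39 at the floor. SOX2, which keeps neural progenitors multipotent, stood at 1.54, 1.06 and 1.29 TPM in the cardiac and at 241, 275 and 149 TPM in the neural libraries. SOX2 differed by -6.83 ± 0.41 in log2 (edgeR adjusted p = 2.34e-12). SOX1, an early marker of neural commitment, stood at 0.29, 0.07 and 0 TPM in the cardiac and at 42.4, 38.4 and 31.4 TPM in the neural libraries. HES5, the Notch effector that holds progenitors undifferentiated, was listed at 0 in the cardiac libraries and stood at 153, 139 and 141 TPM in the neural ones. The cardiac libraries lay below the neural libraries at each of these genes.

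The POU and nuclear receptor factors were abundant on the neural side. NR2F2, a nuclear receptor that acts in the ventral and caudal forebrain and also in veins and atria, stood at 2.04, 0.96 and 1.26 TPM in the cardiac and at 1050.2, 939 and 856 TPM in the neural libraries. NR2F2 differed by -8.68 ± 0.35 in log2 (edgeR adjusted p = 3.83e-15). NR2F1, its close relative with a role in cortical area patterning, stood at 0.11, 0 and 0.13 TPM in the cardiac and at 404, 361 and 261 TPM in the neural libraries. POU3F3 and POU3F2, brain POU factors, reached 121, 118 and 86.9 TPM and 141, 126 and 92.5 TPM in the neural libraries. SOX21, which lies downstream of SOX2, stood at 54.1, 60.4 and 43.1 TPM there. None of these 3 was above 0.34 TPM in a cardiac library. SOX9 was less one-sided, at 13.6, 8.09 and 13.9 TPM in the cardiac and at 108, 117 and 95.8 TPM in the neural libraries. SOX9 differed by -2.60 ± 0.31 in log2 (edgeR adjusted p = 2.05e-07).

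Forebrain and eye field factors were called higher in neural progenitor day 24 for 15 of 18 tested members and in the other direction for SIX6, which was at or under 0.49 TPM in all 6 libraries. The median was -9.02, or -5.91 at the floor. EMX2, a factor of the dorsal telencephalon, was listed at 0 in the cardiac libraries and stood at 106, 76 and 79.1 TPM in the neural ones. LHX2, needed for the eye field and cortex, stood at 191, 169.8 and 130.5 TPM and FEZF2, of deep-layer cortical neurons, at 67, 70.5 and 46.1 TPM in the neural libraries. DLX1, of ventral forebrain and interneurons, was also present there, at 76.6, 71.1 and 60.5 TPM. Dorsal and ventral forebrain factors thus appeared in the same libraries. OTX2, a rostral head factor, stood at 2.08, 1.1 and 0.81 TPM in the cardiac and at 23.2, 17 and 23.6 TPM in the neural libraries. OTX2 differed by -3.00 ± 0.36 in log2 (edgeR adjusted p = 1.8e-07).

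Midbrain, hindbrain and spinal cord factors were at lower levels. Of 20 tested, 11 were called higher in neural progenitor day 24 and 1, HOXB2, in the other direction, with a median of -3.64, or -2.62 at the floor. Their summed level in the neural libraries was 34.95 to 59.11 TPM, beside 569.7 to 823.7 TPM for the forebrain list, and a sum depends on which genes a list holds. DBX1, a factor of interneuron progenitors, was the most abundant of them at 20.3, 10.9 and 11.1 TPM in the neural libraries and was listed at 0 in the cardiac ones. PAX2, of the midbrain-hindbrain boundary, stood at 6.94, 4.99 and 3.55 TPM. HOXB2, a hindbrain and somite Hox gene, stood at 2.45, 2.36 and 2.3 TPM in the cardiac and at 0.74, 0 and 1.09 TPM in the neural libraries. HOXB1, HOXB5 and HOXA5 were listed at 0 in all 6 libraries.

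Radial glia genes did not move as one. Of 16 tested, 8 were called higher in neural progenitor day 24 and 5 in cardiomyocyte day 9, and on log2(TPM + 1) limma called 8 and 1. FABP7, the brain fatty acid binding protein of radial glia, stood at 12.6, 11.9 and 8.76 TPM in the cardiac and at 3693, 3164 and 3409 TPM in the neural libraries. FABP7 differed by -7.32 ± 0.27 in log2 (edgeR adjusted p = 9.17e-16). PTPRZ1, a receptor phosphatase of radial glia, stood at 2.05, 0.97 and 2.18 TPM in the cardiac and at 217, 154 and 125 TPM in the neural libraries, a difference of -6.50 ± 0.40 in log2 (edgeR adjusted p = 4.83e-12), and NES, the intermediate filament nestin, at 78.6, 56.3 and 84 TPM in the cardiac and at 575, 427 and 488 TPM in the neural libraries. NES differed by -2.11 ± 0.27 in log2 (edgeR adjusted p = 5.54e-07). VIM and CDH2, vimentin and N-cadherin, which mesenchyme and heart muscle also use, were abundant on both sides. VIM stood at 1074, 726 and 903 TPM in the cardiac and at 1134, 836 and 839 TPM in the neural libraries, and its fitted difference of 0.65 ± 0.17 in log2 (edgeR adjusted p = 0.00231) turned to -0.14 with limma on log2(TPM + 1). CDH2 stood at 557, 438 and 561 TPM in the cardiac and at 589, 590.1 and 417 TPM in the neural libraries, and its difference of 0.54 ± 0.18 in log2 (edgeR adjusted p = 0.0129) turned to -0.25 in the same alternative. The VIM call was lost without the library labelled neural progenitor day 24 replicate 3 (edgeR adjusted p = 0.058), and the CDH2 call without the library labelled cardiomyocyte day 9 replicate 1 (edgeR adjusted p = 0.058) or neural progenitor day 24 replicate 2 (edgeR adjusted p = 0.0531).

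Neurogenic factors, which drive progenitors out of division, were called higher in neural progenitor day 24 for 19 of 20 tested members, with a median of -8.46, or -6.84 at the floor; ISL2 did not pass. NEUROG2, the proneural factor of the dorsal telencephalon, was listed at 0 in the cardiac libraries and stood at 57.2, 60.4 and 44.1 TPM in the neural ones. TBR1, of early cortical neurons, stood at 99.4, 100.3 and 74.6 TPM in the neural libraries, and EOMES, of intermediate progenitors, at 49.2, 44.9 and 43.8 TPM. NEUROD1 and NEUROD4 stood at 32.8, 32.8 and 21.7 TPM and 50.4, 38.9 and 45.4 TPM there and were listed at 0 in all 3 cardiac libraries. The genes of successive steps of cortical neurogenesis, from NEUROG2 through EOMES to TBR1, were thus all present at once in each neural library.

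All 24 tested genes of the neuronal cytoskeleton and synapse were called higher in neural progenitor day 24, with a median of -7.44. STMN2, a stathmin of growth cones, stood at 5.08, 6.06 and 6.69 TPM in the cardiac and at 1492, 1676 and 1582 TPM in the neural libraries. STMN2 differed by -7.32 ± 0.26 in log2 (edgeR adjusted p = 5.24e-16). MAP2, of dendritic microtubules, stood at 4.29, 2.87 and 3.47 TPM in the cardiac and at 1229.8, 1143 and 954 TPM in the neural libraries, a difference of -7.75 ± 0.23 in log2 (edgeR adjusted p = 3.11e-17), and DCX, of migrating neurons, at 0.28, 0.29 and 0.45 TPM in the cardiac and at 308, 293 and 201 TPM in the neural libraries. DCX differed by -9.11 ± 0.29 in log2 (edgeR adjusted p = 4.23e-17). The neural libraries therefore held large amounts of neuron transcripts beside the progenitor transcripts. STMN1, a stathmin of dividing and neural cells, was abundant on both sides, at 934, 874 and 785 TPM in the cardiac and at 3154, 3122 and 3304 TPM in the neural libraries. STMN1 differed by -0.99 ± 0.18 in log2 (edgeR adjusted p = 4.94e-05). Among transmitter genes, SLC17A6, the vesicular glutamate transporter, stood at 55.2, 60.4 and 71.6 TPM and GAD1, which makes GABA, at 38.7, 38.7 and 28 TPM in the neural libraries. SLC17A6 and the synaptic vesicle gene SYP were listed at 0 in the cardiac libraries.

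Axon guidance and neural adhesion genes were called higher in neural progenitor day 24 for 18 of 19 tested members, with a median of -4.81. L1CAM, an axonal adhesion protein, stood at 115, 95.7 and 79.5 TPM and DCC, the netrin receptor, at 39.8, 32.3 and 25.1 TPM in the neural libraries. NCAM1, which the embryonic heart also carries, stood at 39.3, 26 and 41.9 TPM in the cardiac and at 486, 409.9 and 302 TPM in the neural libraries. NCAM1 differed by -3.02 ± 0.29 in log2 (edgeR adjusted p = 6.46e-09). SEMA3A, a secreted repellent of axons, was the 1 member higher in the cardiac libraries, at 24.9, 23.3 and 17.9 TPM in the cardiac and at 13.5, 16.6 and 16.2 TPM in the neural libraries, a difference of 1.45 ± 0.25 in log2 (edgeR adjusted p = 2.67e-05), with no call by limma on log2(TPM + 1) (adjusted p = 0.0508) or log2(TPM + 0.1) (adjusted p = 0.272).

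**Figure D4:**
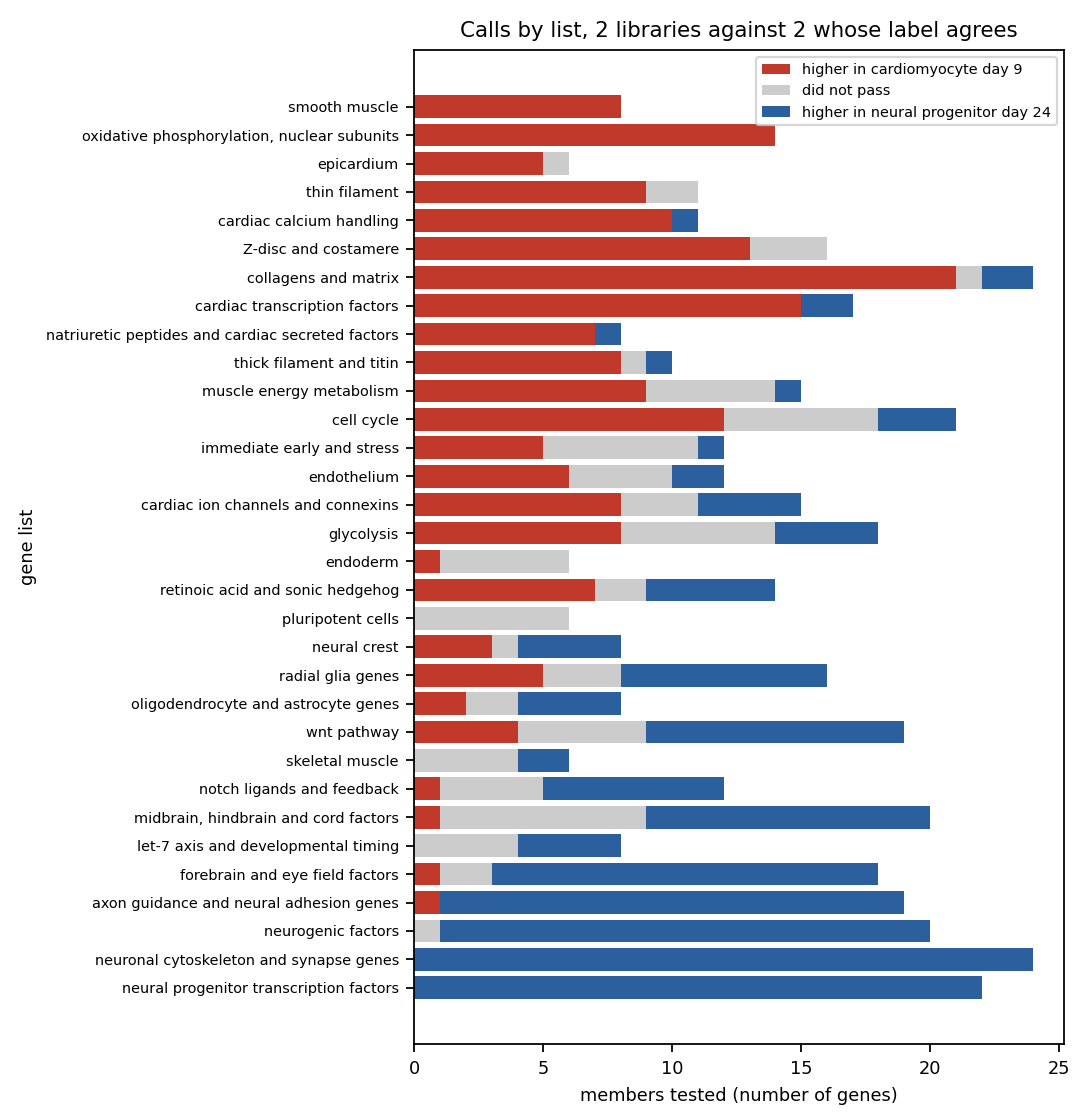
Number of tested members of each gene list called higher in cardiomyocyte day 9, called higher in neural progenitor day 24, or not past the test, for the 2 libraries against 2 whose label matches (edgeR, adjusted p under 0.05). All 24 neuronal genes and all 22 progenitor factors are on the neural side, and 15 of 17 cardiac factors on the cardiac side, beside 31.9% and 31.8% of all genes tested in each direction.

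Notch pathway genes were called higher in neural progenitor day 24 for 7 of 12 tested members and in the other direction for HEY1, with a median of -1.42. DLL1, a ligand, stood at 1.42, 1.82 and 1.02 TPM in the cardiac and at 82.1, 69.3 and 63 TPM in the neural libraries. DLL1 differed by -4.71 ± 0.33 in log2 (edgeR adjusted p = 3.58e-11). NRARP, a feedback inhibitor, stood at 1, 1.18 and 0.48 TPM in the cardiac and at 91, 109.7 and 72.3 TPM in the neural libraries, a difference of -5.68 ± 0.45 in log2 (edgeR adjusted p = 2.66e-10), and LFNG, the fringe glycosyltransferase that modifies Notch receptors, at 0.27, 0.11 and 0.39 TPM in the cardiac and at 44.5, 47.3 and 33.4 TPM in the neural libraries. LFNG differed by -7.16 ± 0.51 in log2 (edgeR adjusted p = 4.8e-11). NOTCH1, a receptor that the radial glia list holds, stood at 1.14, 0.81 and 1.19 TPM in the cardiac and at 65.8, 45.1 and 44.9 TPM in the neural libraries. NOTCH1 differed by -5.06 ± 0.56 in log2 (edgeR adjusted p = 6.36e-08). DLL1, NOTCH1, LFNG and NRARP were thus all higher on the neural side, whereas the ligands JAG1 and JAG2, the receptor NOTCH2 and HEYL did not pass. HEY1, a Notch target of atrial muscle and vessels, stood at 15.1, 11.5 and 12.3 TPM in the cardiac and at 3.52, 3.07 and 1.95 TPM in the neural libraries. HEY1 differed by 2.75 ± 0.34 in log2 (edgeR adjusted p = 3.28e-07).

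Retinoic acid and sonic hedgehog genes split, with 7 of 14 tested members called higher in cardiomyocyte day 9 and 5 higher in neural progenitor day 24, and 4 and 5 by limma on log2(TPM + 1). The 2 cellular retinoic acid binding proteins went in opposite directions. CRABP1 stood at 33.1, 21.8 and 23.2 TPM in the cardiac and at 965, 837 and 548 TPM in the neural libraries. CRABP1 differed by -4.27 ± 0.29 in log2 (edgeR adjusted p = 2.79e-11). CRABP2 stood at 102, 84.3 and 74 TPM in the cardiac and at 33.2, 31.4 and 36.7 TPM in the neural libraries. CRABP2 differed by 2.29 ± 0.24 in log2 (edgeR adjusted p = 2.07e-08). RARB, a retinoic acid receptor that is itself a target of retinoic acid, was higher in the cardiac libraries, at 16.1, 9.5 and 15.2 TPM in the cardiac and at 2.06, 2 and 1.04 TPM in the neural libraries. RARB differed by 3.40 ± 0.63 in log2 (edgeR adjusted p = 6.87e-05). PTCH1, the hedgehog receptor and target, was higher in the neural libraries, at 2.85, 2.4 and 2.16 TPM in the cardiac and at 69.7, 57.9 and 41 TPM in the neural libraries, a difference of -3.80 ± 0.37 in log2 (edgeR adjusted p = 7.36e-09), where the ligand SHH stood at only 3.72, 2.9 and 2 TPM and GLI1 at 2.05, 3.35 and 1.17 TPM.

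Wnt pathway genes were called higher in neural progenitor day 24 for 10 of 19 tested members and in cardiomyocyte day 9 for 4, with a median of -1.57, or -1.38 at the floor. The ligands differed in kind: WNT7A and WNT7B, ligands of the developing forebrain, stood at 46.6, 22.5 and 28.2 TPM and 86.3, 62.9 and 67.9 TPM in the neural libraries and at or under 0.06 TPM in the cardiac ones. WNT5A, a ligand that mostly acts without beta-catenin, stood at 11.8, 13.1 and 14.9 TPM in the cardiac and at 5.43, 4.03 and 5.73 TPM in the neural libraries. WNT5A differed by 2.08 ± 0.25 in log2 (edgeR adjusted p = 1.92e-07). AXIN2, a direct target of beta-catenin signalling, stood at 1.82, 1.79 and 1.14 TPM in the cardiac and at 21, 18.5 and 14.8 TPM in the neural libraries. AXIN2 differed by -2.63 ± 0.38 in log2 (edgeR adjusted p = 3.08e-06). SFRP2, a secreted Wnt modulator, stood at 1.97, 0.49 and 1.32 TPM in the cardiac and at 160.1, 142 and 81.2 TPM in the neural libraries. SFRP2 differed by -6.26 ± 0.39 in log2 (edgeR adjusted p = 4.77e-12).

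Genes of the let-7 axis, which mark early developmental time, were called higher in neural progenitor day 24 for 4 of 8 tested members and in no case the other way, whereas limma on log2(TPM + 1) called all 8 higher there. LIN28A, the RNA-binding protein that blocks let-7 in pluripotent cells, was low on both sides, at 1.86, 4.27 and 2.9 TPM in the cardiac and at 6.87, 11.4 and 5.49 TPM in the neural libraries, beside 998 to 1105 TPM in clone 8 cells at day 0. LIN28B, its relative, stood at 16.6, 13.2 and 13.9 TPM in the cardiac and at 27.5, 35.8 and 16.2 TPM in the neural libraries, beside 120 to 129 TPM at day 0. Neither passed the edgeR test between the lineages. HMGA2, a chromatin protein that let-7 represses, stood at 17.6, 15.3 and 19.8 TPM in the cardiac and at 60.9, 55 and 39 TPM in the neural libraries. HMGA2 differed by -1.03 ± 0.26 in log2 (edgeR adjusted p = 0.00166).

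Cell cycle genes gave opposite answers for different members. Of 21 tested, 12 were called higher in cardiomyocyte day 9 and 3 higher in neural progenitor day 24, and limma on log2(TPM + 1) called 10 and 8. MKI67, a marker of cycling cells, stood at 10.5, 8.28 and 10.3 TPM in the cardiac and at 85.1, 62.3 and 61.2 TPM in the neural libraries. MKI67 differed by -2.20 ± 0.43 in log2 (edgeR adjusted p = 0.000109). CDK1, the mitotic kinase, stood at 119, 134 and 129.6 TPM in the cardiac and at 33.4, 29 and 55.3 TPM in the neural libraries, a difference of 2.70 ± 0.27 in log2 (edgeR adjusted p = 9.57e-09), and CCNB1, its cyclin, at 151, 161 and 160.3 TPM in the cardiac and at 74.6, 52.3 and 65.4 TPM in the neural libraries. CCNB1 differed by 2.07 ± 0.19 in log2 (edgeR adjusted p = 4.94e-09). So the cardiac libraries held less MKI67 and more CDK1 and CCNB1 than the neural ones, without overlap in each case. CDKN1A, the inhibitor p21, was also higher in the cardiac libraries, at 25.3, 14.8 and 22.1 TPM in the cardiac and at 1.52, 0.61 and 2.76 TPM in the neural libraries. CDKN1A differed by 4.69 ± 0.44 in log2 (edgeR adjusted p = 5.01e-09).

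All 14 tested nuclear-encoded subunits of oxidative phosphorylation were called higher in cardiomyocyte day 9, with a median of 1.96, and 12 by limma on log2(TPM + 1). CYCS, cytochrome c, stood at 992, 1227 and 1031 TPM in the cardiac and at 208, 208 and 257 TPM in the neural libraries. CYCS differed by 3.23 ± 0.22 in log2 (edgeR adjusted p = 1.92e-11). ATP5F1A, a subunit of ATP synthase, stood at 2585, 2679.6 and 2628 TPM in the cardiac and at 999, 1118 and 1151 TPM in the neural libraries, a difference of 2.12 ± 0.20 in log2 (edgeR adjusted p = 3.54e-09), and NDUFS1, of complex I, at 515, 637 and 599 TPM in the cardiac and at 173, 199 and 221 TPM in the neural libraries. NDUFS1 differed by 2.44 ± 0.22 in log2 (edgeR adjusted p = 3.04e-09). COX6C, of complex IV, was nearly level in TPM, at 1129, 1233 and 1097 TPM in the cardiac and at 1214, 1101 and 1097 TPM in the neural libraries, and its fitted difference of 0.83 ± 0.18 in log2 (edgeR adjusted p = 0.0003) was 0.03 by limma on log2(TPM + 1). In TPM, 12 of the 14 subunits separated the 6 libraries without overlap, and SDHB and COX6C did not.

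Glycolysis genes were called in both directions. Of 18 tested, 12 were called, 8 higher in cardiomyocyte day 9 and 4 higher in neural progenitor day 24, a share of 66.7% beside 63.7% of all genes, with a median of 0.27, while limma on log2(TPM + 1) called 5 and 9, with a median of -0.51. HK2, a hexokinase, stood at 2.39, 3.21 and 4.49 TPM in the cardiac and at 135, 92.2 and 69 TPM in the neural libraries. HK2 differed by -4.52 ± 0.37 in log2 (edgeR adjusted p = 6.31e-10). SLC2A1, the glucose transporter of brain and erythrocytes, stood at 23.1, 16.7 and 19.9 TPM in the cardiac and at 166, 126 and 94.2 TPM in the neural libraries. SLC2A1 differed by -2.11 ± 0.33 in log2 (edgeR adjusted p = 7.09e-06). LDHA and LDHB, lactate dehydrogenase subunits, were both higher in the cardiac libraries, LDHA at 3193, 3803 and 3934 TPM in the cardiac and at 1331, 1103 and 1140.2 TPM in the neural libraries. LDHA differed by 2.31 ± 0.27 in log2 (edgeR adjusted p = 1.14e-07). LDHB differed by 2.39 ± 0.24 in log2 (edgeR adjusted p = 1.63e-08).

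Matrix and smooth muscle genes were higher in the cardiac libraries, like the heart genes. Of 24 tested collagen and matrix genes, 21 were called higher in cardiomyocyte day 9 and 2, COL9A1 and LAMA1, higher in neural progenitor day 24, with a median of 4.04. By limma on log2(TPM + 1) 18 and 2 were called. In TPM, 18 lay higher in the cardiac libraries without overlap, while COL11A1 and COL12A1, both called, overlapped. The LAMA1 call was lost without the library labelled neural progenitor day 24 replicate 2 (edgeR adjusted p = 0.109). COL3A1, a fibrillar collagen of mesenchyme, stood at 1436, 832 and 1375 TPM in the cardiac and at 2.24, 3.25 and 2.06 TPM in the neural libraries. COL3A1 differed by 9.58 ± 0.42 in log2 (edgeR adjusted p = 1.51e-14). POSTN, periostin, of cardiac cushions and fibroblasts, stood at 821, 900.0 and 887 TPM in the cardiac and at 1.69, 3.52 and 2.43 TPM in the neural libraries. POSTN differed by 9.47 ± 0.40 in log2 (edgeR adjusted p = 7.11e-15). Within the cardiac group the library labelled cardiomyocyte day 9 replicate 3 was the lowest for COL3A1 and also for COL1A1, at 244, 162 and 308 TPM, but not for POSTN. The 5 fibroblast markers summed to 2156 to 2899 TPM in the cardiac libraries and to 7.01 to 12.33 TPM in the neural libraries, and their part in the matrix result was not tested.

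All 8 tested smooth muscle genes were called higher in cardiomyocyte day 9, with a median of 5.7. ACTA2, smooth muscle actin, which early cardiomyocytes also express, stood at 2282, 1873 and 2075 TPM in the cardiac and at 7.99, 16 and 3.68 TPM in the neural libraries. ACTA2 differed by 8.56 ± 0.39 in log2 (edgeR adjusted p = 3.03e-14). TAGLN, transgelin, stood at 2158, 1700.1 and 1883 TPM in the cardiac and at 11.5, 4.46 and 6.93 TPM in the neural libraries. TAGLN differed by 8.42 ± 0.30 in log2 (edgeR adjusted p = 4.77e-16). MYH11, the smooth muscle myosin heavy chain and the more restricted marker, was much lower, at 17, 9.13 and 16.6 TPM in the cardiac and at 0.79, 0.97 and 0.2 TPM in the neural libraries. MYH11 differed by 4.71 ± 0.41 in log2 (edgeR adjusted p = 1.51e-09). VCAM1, a surface protein used in other species to select cardiomyocytes, stood outside the lists at 2313, 2216 and 2305 TPM in the cardiac and at 1.58, 1.05 and 2.17 TPM in the neural libraries. VCAM1 differed by 11.38 ± 0.31 in log2 (edgeR adjusted p = 7.09e-18).

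Markers of other cell types of the heart were lower. The 4 epicardium markers summed to 22.75 to 43.53 TPM in the cardiac libraries and to 0.5 to 0.58 TPM in the neural ones, with UPK3B at 0 in all 6. TBX18, of the epicardium and sinus horn, stood at 29.6, 17.1 and 27.8 TPM in the cardiac and at 0.55, 0.58 and 0 TPM in the neural libraries. TBX18 differed by 6.12 ± 0.52 in log2 (edgeR adjusted p = 8.44e-10). The 6 endothelium markers summed to 23.18 to 39.39 TPM against 10.77 to 12.12 TPM. EGFL7 made up most of the cardiac sum, at 34.4, 25.2 and 19.5 TPM, while PECAM1 was at 1.65, 1.89 and 2.38 TPM. CDH5, at 0.45, 0 and 0 TPM in the cardiac and at 0 in the neural libraries, did not pass. TIE1 and KDR were called higher in neural progenitor day 24. KDR stood at 0.35, 0.84 and 0.16 TPM in the cardiac and at 3.51, 2.55 and 3.01 TPM in the neural libraries (edgeR adjusted p = 0.00367). The 6 endoderm markers summed to 135.1 to 156.8 TPM against 6.73 to 12.1 TPM, and APOA1 alone made up nearly all of it, at 133, 156 and 151 TPM in the cardiac and at 8.48, 6.17 and 11.7 TPM in the neural libraries, with TTR, AFP and HNF4A at 0 in all 6. In clone 8 cells at day 0 APOA1 was at 977 to 1233 TPM.

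Pluripotency markers were low on both sides, with the 4 markers at 1.86 to 4.91 TPM in the cardiac and 6.74 to 14.99 TPM in the neural libraries, most of it LIN28A, and DPPA4 at 0 in all 6. The 3 neural crest markers (SOX10, FOXD3, TFAP2B) summed to 0 to 0.18 TPM in the cardiac and 3.1 to 8.59 TPM in the neural libraries, with SOX10 and FOXD3 at 0 in the cardiac ones. The wider neural crest list was split. Of 8 tested members, 4 were called higher in neural progenitor day 24 and 3, SNAI2, ETS1 and ERBB3, higher in cardiomyocyte day 9. Its sum went the other way, at 86.57 to 120.9 TPM in the cardiac and 16.88 to 32.23 TPM in the neural libraries. Astrocyte and oligodendrocyte genes were called in both directions, 4 of 8 higher in neural progenitor day 24 and 2 higher in cardiomyocyte day 9.

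Of 12 tested immediate early and stress genes, 5 were called higher in cardiomyocyte day 9 and JUN higher in neural progenitor day 24. JUN, a subunit of AP-1, stood at 28.3, 19.1 and 23.1 TPM in the cardiac and at 114, 98.3 and 65.7 TPM in the neural libraries. JUN differed by -1.40 ± 0.24 in log2 (edgeR adjusted p = 3.05e-05). GADD45B, a growth arrest gene, stood at 30.2, 26.2 and 26.6 TPM in the cardiac and at 1.52, 0.69 and 0.96 TPM in the neural libraries. GADD45B differed by 5.18 ± 0.40 in log2 (edgeR adjusted p = 2.06e-10). HSPA5, the chaperone BiP of the endoplasmic reticulum, stood at 784, 714 and 747 TPM in the cardiac and at 442, 381 and 362 TPM in the neural libraries. HSPA5 differed by 1.66 ± 0.18 in log2 (edgeR adjusted p = 5.15e-08).

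Genes of mature skeletal muscle did not follow the lineages. Of 6 tested members of the skeletal muscle list, 2, PAX7 and TNNI2, were called higher in neural progenitor day 24 and none in the other direction. That share of 33.3% is near the 31.8% of all genes called higher there, so the count is not a result about the list. PAX7 was also a member of the midbrain, hindbrain and cord list. TNNI2, fast troponin I, stood at 2.24, 8.1 and 21 TPM in the cardiac and at 11.3, 113 and 13.5 TPM in the neural libraries, and its call (edgeR adjusted p = 0.0419) was lost without the library labelled neural progenitor day 24 replicate 3 (edgeR adjusted p = 0.901), without cardiomyocyte day 9 replicate 1 (edgeR adjusted p = 0.219) and with limma on log2(TPM + 0.1) (adjusted p = 0.0605). MYH1 and MYH2, adult fast myosin heavy chains, stood at 4.06, 8.54 and 14.8 TPM in the cardiac and at 14.6, 77.1 and 11.8 TPM in the neural libraries and at 3.58, 3.23 and 7.35 TPM in the cardiac and at 6.97, 42.1 and 5.89 TPM in the neural libraries in the same order. Neither was called, but both were called higher in neural progenitor day 24 with only the compared libraries in the fit (edgeR adjusted p = 6.42e-07 and 2.39e-06). The myogenic factor MYOD1 was at 0 in all 6 libraries, and MYF5 and MYOG at 0 in the neural ones.

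MYH1, MYH2, TNNI2 and TNNT3 together had 29.81, 48.98 and 86.89 CPM (expected counts scaled to a common library total) in the cardiac libraries and 59.01, 356.5 and 58.81 in the neural libraries. In the other 15 clone 8 libraries, day 0 included, they had 3.246 to 139.2 CPM. The library labelled neural progenitor day 24 replicate 3, with 658 such counts, thus stood above the other 20 clone 8 libraries. It was also the highest neural library for the sarcomere genes MYH7, MYL2, TNNC1, ACTN2 and DES, and the part of this signal in their neural levels was not tested. Without this library edgeR called 9 of 11 thin filament genes, 8 of 10 thick filament genes and 14 of 16 Z-disc genes higher in cardiomyocyte day 9, with medians of 6.49, 7.18 and 6.16.

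**Figure D5:**
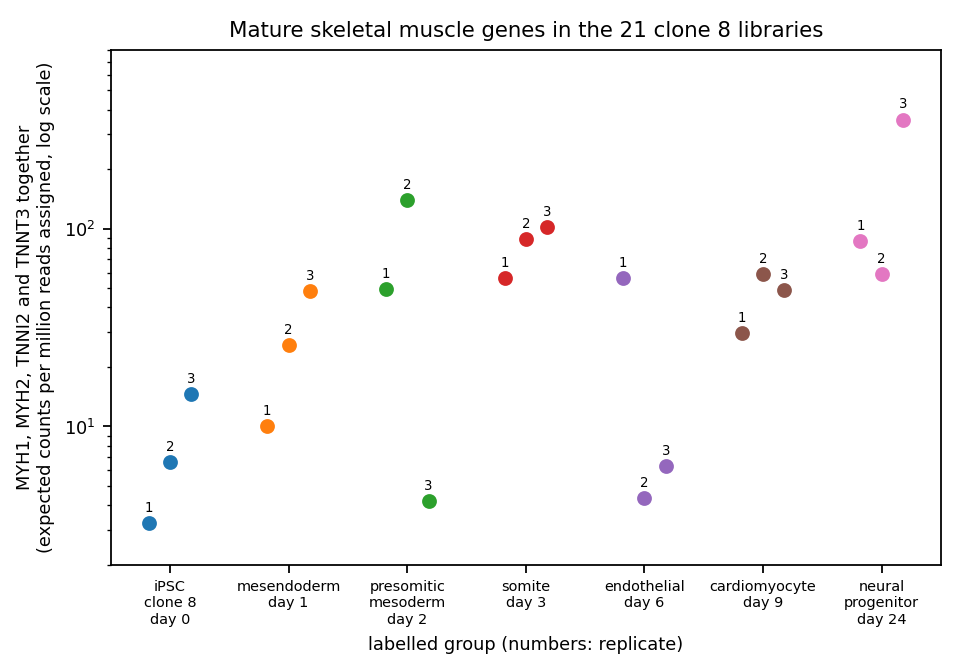
CPM of MYH1, MYH2, TNNI2 and TNNT3 together (log axis) in the 21 clone 8 libraries by labelled group, with replicate numbers above the points. The library labelled neural progenitor day 24 replicate 3 is highest at 356.5 CPM.

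Some of the genes furthest apart were outside the lists. On the cardiac side these included TGM2, a transglutaminase, at 46.4, 34.4 and 53.2 TPM, HSPB3, a small heat shock protein of muscle, at 123, 169.9 and 154 TPM, POPDC2, a cAMP-binding membrane protein of heart, at 53.1, 36.7 and 47.1 TPM, and UNC45B, a myosin chaperone, at 138, 82.1 and 124 TPM. HSPB3 and POPDC2 were listed at 0 in all 3 neural libraries. FBXO40, TMEM71 and LHCGR, the receptor of luteinizing hormone, were also listed at 0 there, and LHCGR stood at 11.4, 13.9 and 11.2 TPM in the cardiac libraries. On the neural side CTNNA2, the neural alpha-catenin, stood at 180.2, 169.7 and 147 TPM and LHX5, a LIM factor of the forebrain and of Cajal-Retzius cells, at 143, 155 and 132 TPM. Both, with NTRK3 and ST18, were listed at 0 in all 3 cardiac libraries. PTPRN2, a phosphatase-like protein of secretory vesicles, stood at 58, 60.5 and 46.3 TPM in the neural libraries.

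Levels in the earlier clone 8 groups, which have 3 libraries each, differed by gene. TNNT2 was at 0.42 to 6.15 TPM and PAX6 at 0 to 4.87 TPM across day 0 to day 6. MYL4 was at most 5.83 TPM and VCAM1 at most 7.4 TPM in those groups. Other contractile genes were present in somite day 3 libraries. TNNC1 was at 1619.6 to 2143 TPM, ACTA2 at 788 to 1019.6 TPM, MYH7 at 89.2 to 98.7 TPM and TNNI1 at 78.7 to 98.8 TPM. TAGLN was higher there, at 3426 to 4080.1 TPM, than in any cardiac library. In endothelial day 6 libraries TNNC1 was at 77.74 to 92.99 TPM, ACTA2 at 11.62 to 19.72 TPM and TNNI1 at 5.76 to 7.54 TPM. Whether these groups lie on the course to cardiomyocyte day 9 was not tested. HAND2 was at 42.1 to 54.3 TPM and COL3A1 at 423 to 760.0 TPM in endothelial day 6 libraries. On the neural side SOX2 was at 171 to 176 TPM at day 0, within the range of the neural libraries, while HES5 was at most 3.78 TPM and TBR1 at most 0.14 TPM in every earlier group.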

How the data were processed

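Bulk RNA-seq was measured in 36 libraries, of which 21 come from clone 8 and 6 are described here. Per the labels' protocols, RNA came from a QIAGEN RNeasy kit and cDNA libraries from ligation-mediated sequencing. The submitters' processing notes name Sscrofa11.1 as the genome build, with RSEM 1.2.3, Bowtie 1.2.3 and bcl2fastq as tools. The values the authors deposited are expected counts (RSEM's estimated counts for each gene in each library). TPM, also deposited by the authors, divides these by transcript length and scales each library to one total. Each table held 20683 genes, and 2097 were at 0 in every library. Whether strand was kept is not given in the sources used here; reads from overlapping genes or close paralogs such as MYH1 and MYH2 may be shared. Symbols matched RefSeq for 20622 genes, whose coordinates are on Sscrofa11.1.

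For edgeR the expected counts were rounded. The shifts together came to 0.00661% of the summed counts of all genes and libraries, which is not a limit per gene. Tests used edgeR 4.0.16 (R 4.3.3) with TMM factors, filterByExpr with a minimum count of 10, the quasi-likelihood F-test over all clone 8 libraries in labelled groups, and Benjamini-Hochberg adjustment over all genes tested, with called meaning an adjusted p under 0.05. The fit was made with all 21 libraries and again with 19, without the 2 that go against their label. Groups made from TNNT2 and PAX6 were described without a test. Alternatives were DESeq2 1.42.0, limma 3.58.1 on log2(TPM + 1) or log2(TPM + 0.1), RLE scaling, no filter, the compared libraries only, a replicate block and each library left out. The edgeR step was tested on simulated data.

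The members and gene lists were chosen with earlier results of these data known. Named genes were at most 5 per list with the largest difference in the main direction and at least 5 TPM, 2 in the other direction, isoform pairs, and 8 per direction outside the lists with at least 10 TPM; further list members, such as NKX2-5, ACTN2, SOX2 and DCX, were named after their values were seen. List counts under other scalings and without the shallowest library were added after seeing the data. Genes at 0 on one side are given by level only. No sequences are shown. Some genes that the naming rule picks are not reported here. COX6A2, HOXB4, NSG1, NSG2, PCDH8, CYP26C1, HAS2, MSLN, HSPA1A, MT2A and 10 list members of oxidative phosphorylation were not analysed here.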

Additional observations from a re-analysis of the deposited data

How the results depend on the processing

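As labelled, 0 genes were called by edgeR and also with DESeq2, RLE scaling, no filter, limma on either TPM scale, the compared libraries only and the replicate block (0 calls), and 0 to 3882 when 1 library was left out. With the libraries whose label matches, the count was 9224 and ranged from 7221 (at least 2-fold) to 9782 (limma on log2(TPM + 1)), with 9488 under the replicate block and 7625 to 8606 with 1 library left out; an arm with 1 library is then assumed to vary like the other groups. Its share of calls higher in cardiomyocyte day 9 was 50.1%, but 27.8% and 28.6% with limma on log2(TPM + 1) and log2(TPM + 0.1), where the median gene moved to -0.55 and -0.69. Genes at least 2-fold apart without overlap numbered 6700, and 2902 at 4-fold. The named genes were picked largely by their difference in the main fit. Their calls, beside 63.7% called among all genes tested, are therefore partly fixed by that choice. Named genes called were 224 of 242, 214 to 226 under the alternatives. Of 2417 values of named genes under alternatives, 2357 kept their direction and side of the threshold, 36 lost and 18 gained the call, and 6 changed sign, all by limma on log2(TPM + 1) and log2(TPM + 0.1): VIM (-0.14 and -0.14), CDH2 (-0.25 and -0.25) and IGF2BP3 (-0.63 and -0.65). Deviations of same-numbered libraries from the means of their labelled groups correlated at 0.847, 0.866 and -0.731. These means include the 2 libraries that go against their label, so the values cannot show whether replicate numbers pair the samples. Under the replicate block NPPB had an edgeR adjusted p of 0.0902. The shallowest library, at 1845333 counts, limits low genes most; a count of 0 there allows 3 counts.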
